A study of Mus musculus with 6 samples.

Results

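The genes described here encode subunits of the proteasome, a set chosen with earlier results of these data known. Its members were taken by symbol, as every row named Psma, Psmb, Psmc, Psmd or Psme followed by a number. This gave 43 of 48401 gene symbols in the tables. Of these, 41 had a mean of at least 1 TPM (a transcript level corrected for gene length and library total) over the 6 libraries and were tested. Psmd5, Psmd9 and Psmd10 match the rule although they encode assembly chaperones of the 19S cap, and Adrm1 and Shfm1, which encode cap subunits, do not match it. The proteasome is the barrel-shaped protease that degrades proteins tagged with ubiquitin in the cytosol and nucleus. Its 20S core is built from rings of alpha and beta subunits with the proteolytic sites inside, and the 19S cap recognises, unfolds and feeds in the substrate. Interferon exchanges the catalytic beta subunits for Psmb8, Psmb9 and Psmb10, giving the immunoproteasome, and induces the PA28 alpha and beta cap (Psme1, Psme2), which favours peptides for MHC class I. In sensory neurons, protein turnover by proteasomes serves long axons and synapses as well as the cell body.

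The libraries were bulk RNA-seq of L4/5 dorsal root ganglia, the clusters of sensory neuron cell bodies and glia along the spine. They came from C57BL/6J males 8 weeks old, injected intrathecally (into the spinal fluid) with siRNA, and no untreated ganglia are among the libraries. In 3 libraries (siNC-1 to siNC-3) the siRNA was siNC, taken here as the control, and in 3 (siCLAP-1 to siCLAP-3) it was siCLAP, directed at the long noncoding RNA CLAP, which the study's title links to itch. The labels do not say whether a library came from 1 mouse or from pooled mice, so p-values measure the spread between these libraries only. The level of CLAP was not analysed here, so the knockdown was not checked. Expected counts summed to 21386768 to 46317735 per library. Markers of sensory neurons were abundant, with peripherin (Prph) at 2544 to 2849.8 TPM. Over all 19141 genes tested, 56 passed edgeR's quasi-likelihood test at a Benjamini-Hochberg adjusted p under 0.05 (0.293%), 0.0731% being higher in siCLAP and 0.219% lower.

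Most proteasome transcripts were abundant in the ganglion and varied little between libraries, while those of the immunoproteasome varied more. The 14 constitutive 20S genes had mean levels from 65.7 TPM (Psma3) to 349 TPM (Psmb1). Of the 41 tested genes, 34 lay in the top 20% of all tested genes by mean TPM. Psmb8 and Psmb9, by contrast, averaged 12.7 and 6.24 TPM. The coefficient of variation of normalised counts scaled to library size (CPM) over the 6 libraries had a median of 7.40% in the constitutive 20S genes and 5.19% in the 19S base and lid genes, against 8.63% over all genes tested. In the immunoproteasome catalytic genes it was 25.2%. Psma8 and Psmb11, the 20S subunits of testis and of thymic epithelium, were near the floor. Psma8 was at 0.296 to 0.802 TPM. Psmb11 had 0 counts in siNC-1, which allows up to 3, and at most 5 in the others. Both stayed below the filter of 1 TPM and were not tested.

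**Figure D1:**
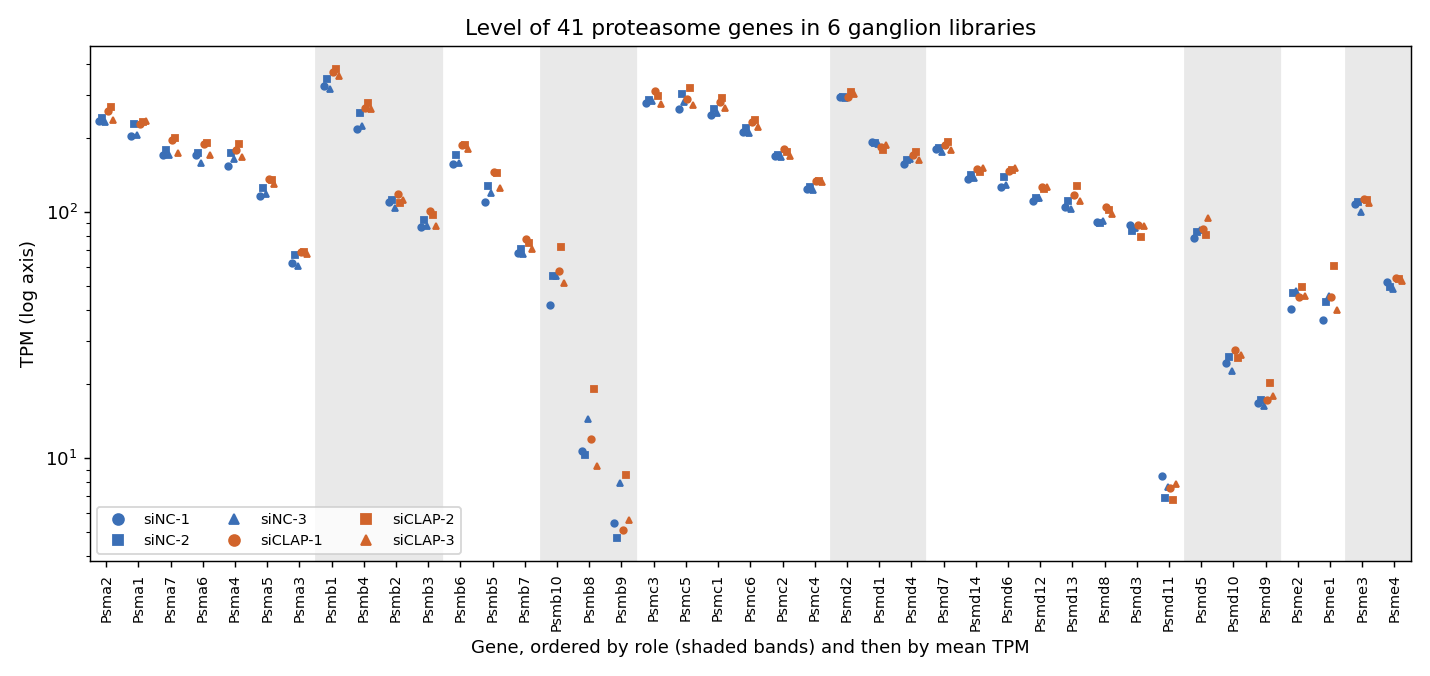
Level of the 41 tested proteasome genes in each of the 6 libraries, in TPM on a log axis, with siNC libraries in blue and siCLAP libraries in orange. Points of a gene lie close together except for Psmb8, Psmb9, Psmb10 and Psme1, where siCLAP-2 is highest, and Psmd11 lies far below the other lid genes.

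In the comparison of siCLAP with siNC, 0 proteasome genes passed edgeR's test (over all genes 0.293% did, 0.0731% higher and 0.219% lower), and most estimates were small and positive. Of the 41 genes, 38 had a positive estimate and 3 a negative one, against 49.5% positive over all genes tested. The median log2 fold change was 0.13, a 1.09-fold difference, against −0.00179 over all genes tested. At an unadjusted p under 0.05, 19 proteasome genes were higher and 0 lower, where 8.22% and 8.75% of all tested genes were. On the CPM scale, in 15 of the 41 every siCLAP library lay above every siNC library, and in 0 below, against 10.9% and 10.7% of all tested genes. The smallest adjusted p was 0.0982, for Psmd8. Among other tools run on the same libraries, DESeq2 called 4 proteasome genes higher (Psmb1, Psmb4, Psmb6 and Psmd6), where it called 1.25% of all tested genes higher and 3.18% in either direction. Limma on log2(TPM + 0.5) called 0 of all tested genes, and limma voom called 0 proteasome genes. In these 2 settings 15 and 19 proteasome genes were higher at an unadjusted p under 0.05, against 6.83% and 8.14% of all tested genes. Proteasome genes share libraries and vary together, so their number is not a number of independent observations.

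**Figure D2:**
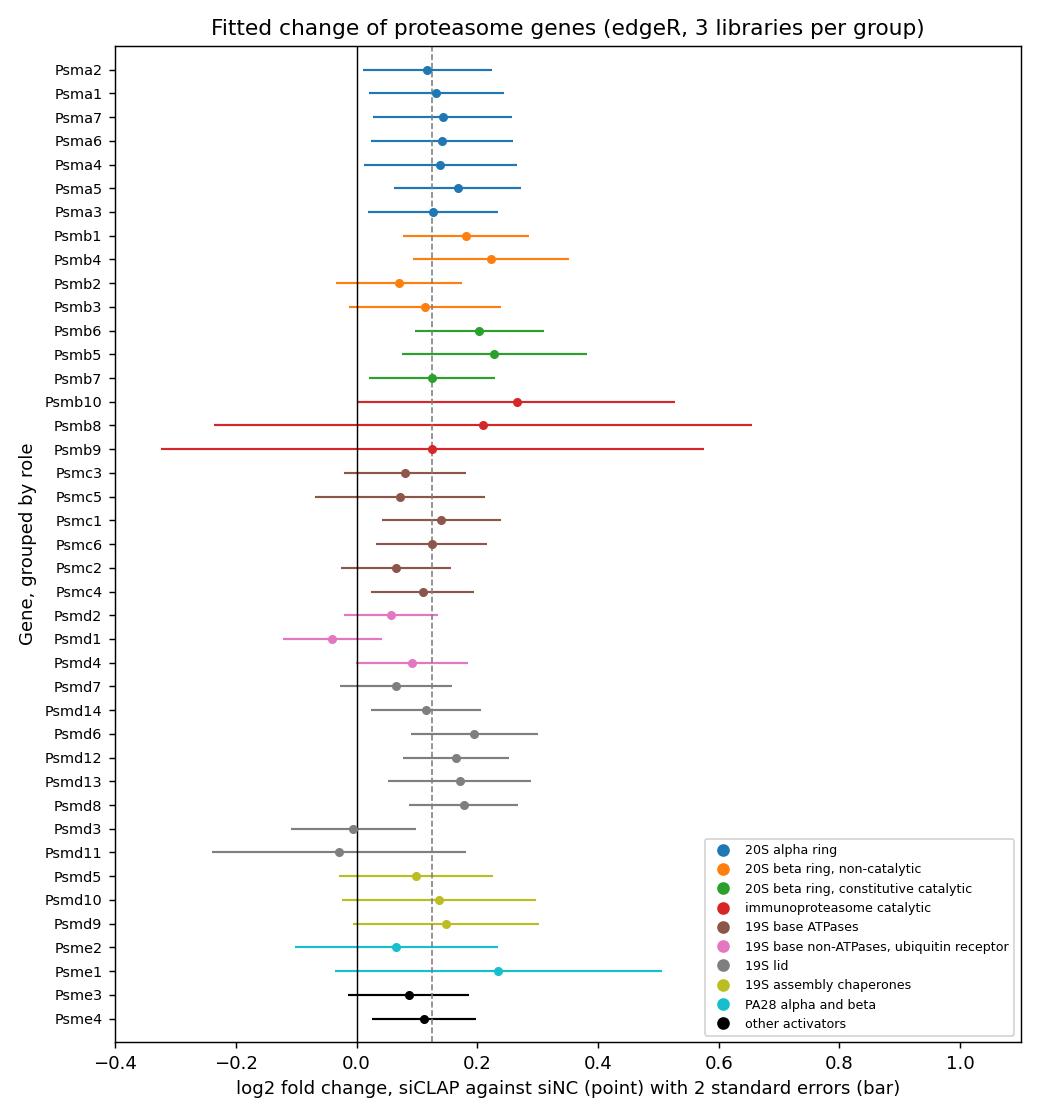
Fitted log2 fold change of each tested proteasome gene, siCLAP against siNC, with bars of 2 standard errors, coloured by role. The solid line marks no change and the dashed line the median of 0.13. No gene passed the test, and the bars of Psmb8 and Psmb9 are the widest.

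The shift was not the same in every library. Relative to the mean of the 6 libraries, the median log2 level of the 41 genes was −0.11, −0.00212 and −0.0830 in the siNC libraries and 0.0810, 0.0908 and 0.0141 in the siCLAP libraries. The siNC-2 and siCLAP-3 libraries lay next to each other, with siNC-1 and siNC-3 below them and siCLAP-1 and siCLAP-2 above. Setting the interferon-inducible genes apart, 21 of 36 genes were lowest in siNC-1 and 12 in siNC-3. Of the same genes, 16 were highest in siCLAP-1 and 13 in siCLAP-2. Summed over the 43 genes, TPM stood at 5380.3, 5692 and 5438 in the siNC libraries and 5981, 6089 and 5732 in the siCLAP libraries. The genes higher at an unadjusted p under 0.05 numbered 8 without siNC-3 and 8 without siCLAP-1, 9 without siNC-1 and 11 without siCLAP-2. They numbered 25 without siNC-2, when Psmb4 passed, and 24 without siCLAP-3. With both siNC-3 and siCLAP-2 left out, a pair chosen after values were seen, 5 were at that level, against 3.68% of all tested genes. That pair joins a low siNC library and a high siCLAP library of these genes, and such counts also depend on the number of libraries. With 1 library left out, the matching shares of all tested genes ran from 4.37% to 10.6%. Positive estimates then numbered 37 (without siNC-2) to 39 (without siNC-1) of 41, with medians of 0.11 to 0.16. Without the pair, 40 were positive, with a median of 0.0935 against −0.00219 over all tested genes.

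Gene length and level moved with the result. When tested genes above 0 TPM in every library were put in 5 bins of 3753 genes each by length (taken from the ratio of count to TPM), from shortest to longest, the median log2 fold changes were 0.03, 0.04, 0.00816, −0.0140 and −0.04. Of the proteasome genes, 7 and 24 belong to the 2 shortest bins, with medians of 0.18 and 0.13. By level, the top 20% of all genes had a median of 0.03. With the median of each gene's length bin subtracted, a step chosen after seeing the data, the proteasome median was 0.0925. The part of length and level in the result was not tested further. In bulk ganglia, more cells of a type and more RNA per cell cannot be told apart. Of the marker lists, that of sensory neurons had a median of 0.05 over 10 genes (6 positive, 1 passed, lower), that of satellite glia 0.10 over 5, and that of Schwann cells −0.14 over 6 (1 passed, lower). Summed levels of these lists overlapped between the groups for neurons, at 11727 to 12632 TPM in siNC and 11989 to 12789 TPM in siCLAP. They also overlapped for satellite glia (3690.4 to 4080.3 against 4034 to 4460.4 TPM) and for Schwann cells (3394 to 4456 against 3379 to 3683 TPM). No gene of these lists was at 0 in all libraries, and the part of cell make-up in the result was not tested.

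The alpha ring, whose subunits form the gate of the core, had estimates close together. Its 7 estimates ran from 0.12 to 0.17 on the log2 scale, and 5 had an unadjusted p under 0.05. Psma2 was the most abundant of them, at 234, 241 and 233 TPM with siNC and 257, 267 and 236 TPM with siCLAP. The highest siNC library of Psma2 lay above the lowest siCLAP library. Psma5, with the largest estimate of the ring, was at 54.2, 59.7 and 55.8 CPM with siNC and 65.04, 64 and 61.7 CPM with siCLAP. Every siCLAP library of Psma5 lay above every siNC library (log2 fold change 0.17 ± 0.05, estimate ± SE here and below, adjusted p = 0.152 in edgeR's test). Psma3 had the lowest level of the ring, at 62.3, 66.8 and 60.3 TPM with siNC and 69.2, 68.5 and 67.3 TPM with siCLAP. Psma3 transcripts share 15.4% of their 50-base words with other genes, the processed pseudogene Gm13835 first. Gm13835 was listed at 95.5 to 111 TPM, above Psma3 itself. Reads may have been divided between Psma3 and Gm13835, so the level of Psma3 is uncertain. The same holds for Psma5, which shares 49.96% of its words with other genes, the pseudogene Gm8394 first (up to 10.9 TPM).

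Among the non-catalytic beta subunits, Psmb1 and Psmb4 had the larger estimates. Psmb1, the most abundant proteasome gene by mean TPM, was at 127, 139 and 123 CPM with siNC and 148, 151 and 142 CPM with siCLAP. Its lowest siCLAP library lay above its highest siNC library, with a log2 fold change of 0.18 ± 0.05 (adjusted p = 0.126). Psmb4 was at 96.7, 116 and 100.1 CPM with siNC and 121, 126 and 119 CPM with siCLAP. Its groups did not overlap either, although siNC-2 came close to siCLAP-3 (log2 fold change 0.22 ± 0.06, adjusted p = 0.129). Psmb2 and Psmb3 stood at 0.07 ± 0.05 and 0.11 ± 0.06, with overlapping groups. Psmb3 was the least abundant of the 4, at 87.01, 92.9 and 87.8 TPM with siNC and 101, 97.3 and 88.1 TPM with siCLAP.

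The constitutive catalytic subunits Psmb6, Psmb7 and Psmb5 carry the caspase-like, trypsin-like and chymotrypsin-like sites, and each has an immunoproteasome counterpart, Psmb9, Psmb10 and Psmb8. Psmb6 was at 61.1, 68.2 and 61.8 CPM with siNC and 74.4, 74.1 and 71.8 CPM with siCLAP. Every siCLAP library exceeded every siNC library, by a mean of 1.15-fold (log2 fold change 0.20 ± 0.05, adjusted p = 0.101), and Psmb6 was among the genes that DESeq2 called. Psmb5 was at 36.05, 42.8 and 39.4 CPM with siNC and 48.7, 48.1 and 41.9 CPM with siCLAP. Here siCLAP-3 lay below siNC-2, so the groups overlapped (log2 fold change 0.23 ± 0.08, adjusted p = 0.174). Psmb7 was at 72.6, 77.4 and 72.8 CPM with siNC and 84.9, 81.5 and 76.8 CPM with siCLAP, again with siCLAP-3 just below siNC-2 (log2 fold change 0.13 ± 0.05, adjusted p = 0.257). Of the Psmb5 transcripts, 54.1% of 50-base words also occur in other genes, Gm3375 first, and 11.8% of the exonic bases of Psmb7 overlap Nek6.

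The immunoproteasome genes each spread over a wider range within a group than the difference between the group means. Psmb8 was at 10.8, 10.3 and 14.5 TPM with siNC and 11.97, 19.1 and 9.35 TPM with siCLAP. The siNC-3 and siCLAP-2 libraries were the highest of their groups, and the groups overlapped throughout. The fitted log2 fold change of Psmb8 was 0.21 ± 0.22 (adjusted p = 0.666), and it was −0.11 without siCLAP-2, 0.36 without siNC-3 and 0.41 without siCLAP-3. Psmb9 was at 5.46, 4.77 and 7.92 TPM with siNC and 5.12, 8.55 and 5.63 TPM with siCLAP, with the same pair of libraries on top. Its estimate of 0.13 ± 0.22 (adjusted p = 0.815) became −0.12 without siCLAP-2 and −0.03 without siNC-2. Psmb10, the most abundant of the trio, was at 41.8, 55.2 and 55.3 TPM with siNC and 57.5, 72.1 and 51.7 TPM with siCLAP. In Psmb10 siCLAP-2 was again highest and siNC-1 lowest, while siNC-2 and siNC-3 were close (log2 fold change 0.27 ± 0.13, adjusted p = 0.334). The estimate of Psmb10 was 0.13 without siCLAP-2 and 0.14 without siNC-1. Gm20496, an antisense gene that overlaps 14.7% of the Psmb8 exonic bases, was listed at 21.8, 20.6 and 27.96 TPM in siNC and 25.02, 39.03 and 18.6 TPM in siCLAP. It put the 6 libraries in the same order as Psmb8 did. Because the library kit does not mark strand, reads that fall where the pair overlap cannot be told apart.

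The ratio of each immunoproteasome subunit to its constitutive partner, on the TPM scale, did not separate the groups. Psmb8 stood at 9.78, 8.07 and 12.1% of Psmb5 in the siNC libraries and 8.26, 13.2 and 7.46% in the siCLAP libraries. Psmb9 stood at 3.48, 2.79 and 5.03% of Psmb6 in siNC and 2.75, 4.58 and 3.12% in siCLAP. Psmb10 was at 61.3, 77.9 and 81.5% and 74.1, 96.1 and 73.2% of Psmb7. All 3 ratios overlapped between siNC and siCLAP, and each was highest of its group in siNC-3 and in siCLAP-2. Taking the 6 catalytic genes together, the immunoproteasome members made up 14.8% to 19.7% of their summed TPM, mostly through Psmb10. Psmb5 and Psmb8 share sequence with other genes, as given above, so percents that use them are uncertain.

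**Figure D3:**
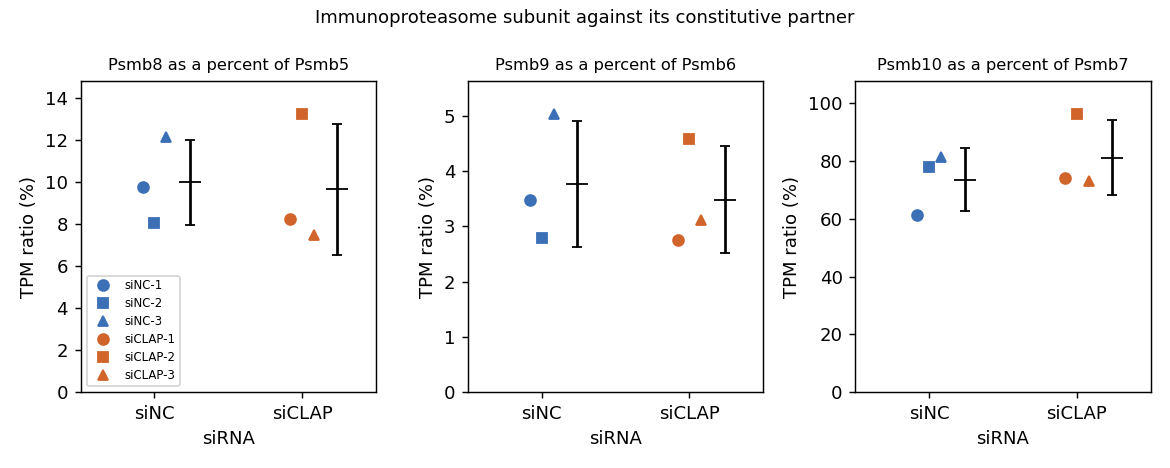
TPM of Psmb8, Psmb9 and Psmb10 as a percent of Psmb5, Psmb6 and Psmb7 in each library (points), with the mean and SD of the 3 libraries of each group (black). The groups overlap in each panel, and siNC-3 and siCLAP-2 are the highest points of their groups.

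Psmb8 and Psmb9 lie 9956 bases apart on chromosome 17 (GENCODE M21, mm10) in the MHC class II region, transcribed away from each other, and Psmb9 overlaps exons of Tap1, the peptide transporter. Psme1 and Psme2 lie 5911 bases apart on chromosome 14 and point towards each other. Short stretches around the starts of Psmb8, Psme1, Psmb5 and Psmb6 are shown, since these genes belong to the interferon-inducible and the constitutive sets and their windows hold a motif known for each. They come from RefSeq windows on GRCm38.p6 of 250 bases before to 50 after the start, which 36 of the 43 genes had. Capitals mark a match, on either strand, to an interferon-gamma activated site (GAS) TTCNNNGAA in Psmb8, to an interferon regulatory factor (IRF) element in Psme1 (TTTC, any 2 bases, TTTC), and to an antioxidant response element core TGACNNNGC, bound by Nrf1, in Psmb5 and Psmb6. In GENCODE M21 the Psmb8 and Psme1 stretches lie within exons of the same gene, so their RefSeq starts are not the first ones annotated.
Psmb8, chr17:34198088-34198117 (+ strand): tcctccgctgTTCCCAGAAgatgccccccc
Psme1, chr14:55578494-55578523 (+ strand): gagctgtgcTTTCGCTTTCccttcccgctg
Psmb5, chr14:54618023-54618115 (- strand): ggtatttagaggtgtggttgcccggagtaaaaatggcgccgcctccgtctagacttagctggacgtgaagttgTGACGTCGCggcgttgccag
Psmb6, chr11:70525237-70525356 (+ strand): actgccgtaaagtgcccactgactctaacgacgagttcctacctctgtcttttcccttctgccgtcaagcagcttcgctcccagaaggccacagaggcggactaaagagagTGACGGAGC

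IRF letters occur in 4 of 39 proteasome windows (Psmb3, Psmd4, Psmd9 and Psme1) and in 3.44% of all 32851 RefSeq windows. GAS letters occur in 2 (Psmb8 and Psmd2), against 8.3% of all windows. Antioxidant element letters occur in 6 (Psmb5, Psmb6, Psmc6, Psmd9, Psmd12 and Psme4), against 12.4%. Such a match describes the letters and does not show a site.

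Psme1 and Psme2 encode PA28 alpha and beta. Psme1 was at 36.3, 43.1 and 45.4 TPM with siNC and 45.1, 60.3 and 40.1 TPM with siCLAP, highest in siCLAP-2 and lowest in siNC-1, with overlapping groups (log2 fold change 0.23 ± 0.14, adjusted p = 0.402). The Psme1 estimate was 0.0601 without siCLAP-2, 0.14 without siNC-1 and 0.35 without siCLAP-3. Psme2 was at 40.5, 47 and 47.99 TPM with siNC and 45.1, 49.4 and 45.8 TPM with siCLAP. Its spread was narrower, although siCLAP-2 was again highest and siNC-1 lowest (log2 fold change 0.07 ± 0.08, adjusted p = 0.727). Without siNC-1 the Psme2 estimate was −0.0118, and without siCLAP-2 0.0291. Psme2 shares 28.3% of its words with other genes, the copy Psme2b first (5.66 to 8.49 TPM), so the level of Psme2 is uncertain. The products of Psme1 and Psme2 assemble into one ring, and in TPM Psme2 stood at 82% to 114% of Psme1.

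Interferon-response genes were often highest in the same libraries as Psmb8 and Psmb9, a comparison chosen after those values were seen. Of 24 listed genes, none of them a proteasome gene, 21 were highest in siNC-3 among the siNC libraries and in siCLAP-2 among the siCLAP libraries, as were 11.2% of all tested genes. On the CPM scale used for these counts, the same held for 2 of 3 immunoproteasome catalytic genes (Psmb8 and Psmb9, and in TPM also Psmb10), for Psme1 and Psme2, for 9 of 11 class I peptide loading genes, and for 0 of the 36 remaining proteasome genes. Isg15, a ubiquitin-like modifier induced by interferon, was at 26.1, 18.1 and 53.2 TPM with siNC and 19.9, 46.3 and 27.6 TPM with siCLAP. Ifit3, another interferon-induced gene, was at 46.2, 44.9 and 99.3 TPM with siNC and 29.2, 79.5 and 50.1 TPM with siCLAP. Irf1, a transcription factor that drives immunoproteasome genes, was at 14.2, 13.7 and 19.99 TPM with siNC and 14.8, 18.5 and 16.8 TPM with siCLAP. In each of these genes siNC-3 and siCLAP-2 led their groups, and the groups overlapped. None of the 24 passed edgeR's test, 0 had an unadjusted p under 0.05, and the median log2 fold change was −0.04. The smallest p values of the list were those of Stat2 at −0.22 ± 0.11 and Ifit2 at −0.18 ± 0.12.

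Macrophages and lymphocytes express immunoproteasome genes, so their markers are given beside these values. The summed level of 12 macrophage markers was 122, 77.01 and 134 TPM in siNC and 98.8, 150.4 and 68.8 TPM in siCLAP, also highest in siNC-3 and siCLAP-2 of their groups. Among the siNC libraries, however, Adgre1, Mrc1 and Cx3cr1 were highest in siNC-1, and the other macrophage markers in siNC-3. The defining markers Ptprc and Adgre1 were at 0.585 to 2.01 and 0.504 to 1.68 TPM. None of the 10 T and NK cell markers exceeded 0.787 TPM in any library, and their sum ran from 0.933 to 1.71 TPM in siNC and 0.577 to 2.94 in siCLAP. The 6 B and plasma cell markers summed to 2.76 to 3.47 and 2.05 to 3.42 TPM, and the 6 endothelial markers to 60.1 to 70.8 and 62.6 to 66.3 TPM. The part of these cells, or of interferon, in the immunoproteasome values was not tested.

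**Figure D4:**
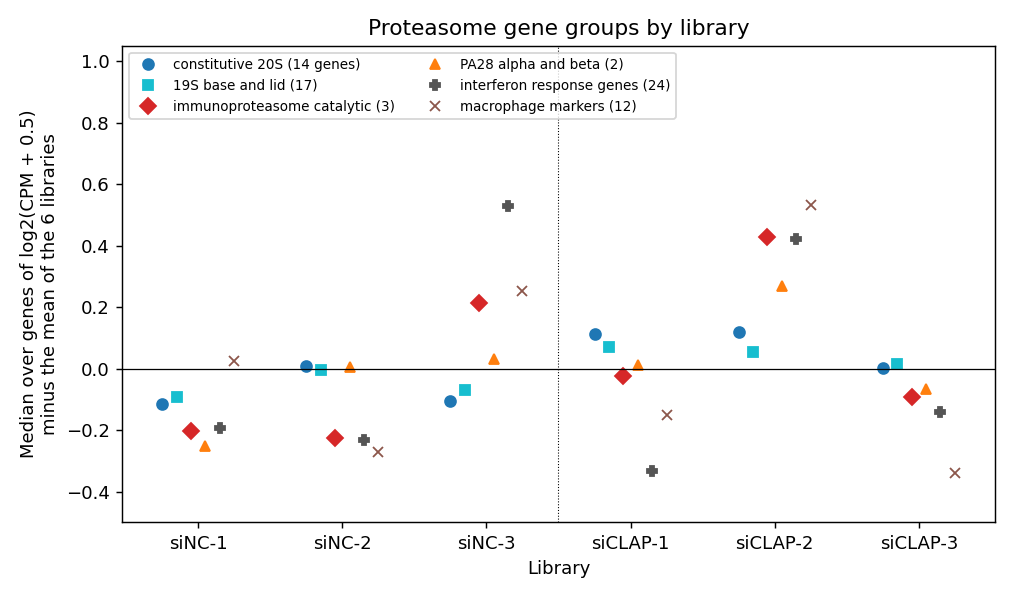
Median over the genes of each group of log2(CPM + 0.5) minus the mean of the 6 libraries, for proteasome gene groups, interferon-response genes and macrophage markers. Constitutive 20S and 19S genes stay within 0.12 of the mean, while the immunoproteasome catalytic genes reach 0.43 in siCLAP-2 and 0.21 in siNC-3.

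In the base of the 19S cap, the 6 ATPases (Psmc1 to Psmc6), which unfold the substrate, all had positive estimates, from 0.07 to 0.14. Their mean levels ran from 129 TPM (Psmc4) to 288 TPM (Psmc3). Psmc3 was at 277, 285 and 282 TPM with siNC and 309, 297 and 276 TPM with siCLAP, with siCLAP-3 below all siNC libraries in TPM. In CPM, siCLAP-3 (192) lay above siNC-1 (189). Psmc4, with a narrower spread, was at 125, 127 and 123 TPM with siNC and 133, 134 and 133 TPM with siCLAP, and its groups did not overlap (log2 fold change 0.11 ± 0.04, adjusted p = 0.232). Psmc1 and Psmc6 also had groups that did not overlap, and Psmc2 and Psmc5 groups that did. The first pair stood at 0.14 ± 0.05 and 0.12 ± 0.05 on the log2 scale. The base also holds the scaffold subunits Psmd2 and Psmd1. Psmd2 was at 292, 292 and 292 TPM with siNC and 294, 306 and 302 TPM with siCLAP, the groups lying close but apart (log2 fold change 0.06 ± 0.04). Psmd1 had one of the negative estimates, at −0.04 ± 0.04. Its groups overlapped in CPM, while in TPM each siCLAP library lay below each siNC library. Psmd1 shares 6.22% of its words with other genes, Gm21972 first (83.5 to 106 TPM, log2 fold change 0.19 ± 0.08). The level and the estimate of Psmd1 are therefore uncertain. Psmd4, the ubiquitin receptor of the cap, less abundant than Psmd1 and Psmd2, was at 157, 162 and 164 TPM with siNC and 171, 176 and 163 TPM with siCLAP (log2 fold change 0.09 ± 0.05, adjusted p = 0.346), and its groups overlapped in TPM but not in CPM.

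In the lid, which removes the ubiquitin chain, 6 of 8 estimates were positive. Psmd8 was at 74.3, 75.4 and 76.1 CPM with siNC and 88.1, 84.9 and 82.1 CPM with siCLAP. The siNC libraries of Psmd8 were nearly equal and every siCLAP library lay above them (log2 fold change 0.18 ± 0.05, adjusted p = 0.0982). Psmd12 was at 81.8, 86.2 and 84.6 CPM with siNC and 95.1, 92.6 and 95.3 CPM with siCLAP, and Psmd6 at 65.2, 73.5 and 67.4 CPM with siNC and 78.3, 78.3 and 79.7 CPM with siCLAP. Neither overlapped between groups, and their log2 fold changes were 0.16 ± 0.04 and 0.20 ± 0.05 (adjusted p = 0.104 and 0.108). Psmd14, the deubiquitinating enzyme of the lid, stood at 0.12 ± 0.05, Psmd13 at 0.17 ± 0.06 and Psmd7 at 0.07 ± 0.05. Psmd7 had the highest level of the lid genes, at 181, 183 and 176 TPM with siNC and 188, 193 and 179 TPM with siCLAP. Psmd3 stood at −0.01 ± 0.05. Psmd11 had the lowest level, at 8.46, 6.91 and 7.65 TPM with siNC and 7.58, 6.78 and 7.87 TPM with siCLAP, while the other lid genes averaged 85.8 TPM (Psmd3) or more. The lid holds 1 copy of each subunit. Psmd11 transcripts share 9.43% of their words with other genes, A730017L22Rik first (0.899 to 1.77 TPM), and the counting of this gene was not tested further. The estimate of Psmd11 was −0.03 ± 0.11.

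The chaperones that assemble the base, Psmd5, Psmd9 and Psmd10, had levels of 84.5, 17.6 and 25.4 TPM on average and estimates of 0.10 ± 0.06, 0.15 ± 0.08 and 0.14 ± 0.08. Psmd5 was at 78.3, 83.02 and 84.9 TPM with siNC and 85.7, 80.5 and 94.3 TPM with siCLAP, highest in siCLAP-3. Psmd9 was at 16.7, 17.2 and 16.3 TPM with siNC and 17.2, 20.2 and 17.9 TPM with siCLAP. Their groups overlapped in all cases. Psme3, the nuclear PA28 gamma cap, was at 108, 109.5 and 99.8 TPM with siNC and 113, 112 and 108 TPM with siCLAP (log2 fold change 0.09 ± 0.05). Psme4, the PA200 cap, was at 51.8, 49.6 and 48.6 TPM with siNC and 54.2, 53.6 and 52.6 TPM with siCLAP. The siCLAP libraries of Psme4 lay above those of siNC (log2 fold change 0.11 ± 0.04, adjusted p = 0.226).

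Median log2 fold changes were 0.14 over the 14 constitutive 20S genes, with 10 at an unadjusted p under 0.05, and 0.0917 over the 17 base and lid genes, with 8. All of these were higher, as were 8.22% of all tested genes. The per-library medians of the constitutive 20S genes were −0.12, 0.00741 and −0.11 in the siNC libraries and 0.11, 0.12 and 0.00265 in the siCLAP libraries. Those of the immunoproteasome catalytic genes were −0.20, −0.23 and 0.21 in the siNC libraries and −0.0234, 0.43 and −0.0933 in the siCLAP libraries. In the constitutive 20S medians siNC-2 lay just above siCLAP-3, and the other siNC libraries below every siCLAP library. The immunoproteasome medians overlapped more widely. The difference between constitutive and immunoproteasome genes in their response to siCLAP was not tested.

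Other genes of the pathway, grouped in lists by function, had 0 members past edgeR's test. The cap subunits outside the symbol rule, Adrm1, a ubiquitin receptor, and Shfm1, stood at 0.06 ± 0.05 and 0.29 ± 0.09. Shfm1 was at 29.96, 33.9 and 30.8 TPM with siNC and 41.03, 40.8 and 33 TPM with siCLAP, and siCLAP-3 lay below siNC-2. Of 11 assembly factors, inhibitors and adaptors, 10 had a positive estimate and 2 an unadjusted p under 0.05, with a median of 0.10. Over all tested genes, 49.5% were positive and 8.22% higher at that level. The pair was Txnl1, a thioredoxin-like protein bound to the proteasome, at 0.18 ± 0.04 (adjusted p = 0.0907), and Pomp, the maturation factor of the core, at 0.22 ± 0.10. Txnl1 was at 103, 106 and 106 TPM with siNC and 117, 122 and 116 TPM with siCLAP, without overlap between the groups. The transcription factor Nfe2l1 (Nrf1), which raises proteasome genes when proteasomes are inhibited, had a level of 375 to 397 TPM and an estimate of −0.02 ± 0.04. Of the 4 regulators the smallest p values were those of Ngly1, which activates Nrf1, at 0.13 ± 0.07, and Nfe2l2 at −0.06 ± 0.06.

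Among 12 ubiquitin shuttles and proteasome-bound enzymes, 3 were higher at an unadjusted p under 0.05 and 0 lower, with a median of 0.02. In this and the next lists the shares of all tested genes to set beside such counts are 8.22% higher and 8.75% lower. Zfand5, a zinc finger protein that activates the 26S proteasome, was at 63.8, 68.3 and 61.2 TPM with siNC and 78.6, 77.6 and 77.4 TPM with siCLAP. All siCLAP libraries of Zfand5 lay above all siNC libraries, and its adjusted p of 0.0506 in edgeR's test stood just over the threshold (log2 fold change 0.29 ± 0.05). Uchl5, a deubiquitinating enzyme of the cap, stood at 0.15 ± 0.06. Among 11 genes for ubiquitin, its activating enzymes and the p97 unfoldase, 1 was higher at an unadjusted p under 0.05, and the list had a median of 0.04. The higher one was the ubiquitin fusion gene Rps27a at 0.17 ± 0.07. Of the 11 class I peptide loading genes 3 were lower and 0 higher at that level, with a median of −0.06. The smallest p values were those of the chaperone Calr at −0.13 ± 0.05 and the transcription factor Irf2 at −0.19 ± 0.07 (adjusted p = 0.196 and 0.204).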

How the data were processed

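RNA-seq was measured in 6 libraries, with groups and replicate numbers from the titles. The authors' deposited tables hold TPM and expected counts per gene symbol; these expected counts include fractions. FastQC 0.11.8, HISAT2 2.1.0, featureCounts 1.6.2 and mm10 are named in the submitters' processing notes, and the annotation, strand setting and treatment of shared reads were not given in the sources used here. Counts were rounded and tested by quasi-likelihood in edgeR 4.0.16 under R 4.3.3 (TMM, mean TPM of at least 1, no covariate), adjusted by Benjamini-Hochberg over 19141 genes. CPM are TMM-normalised. The common biological coefficient of variation was 6.78%. Alternatives used limma 3.58.1, DESeq2 1.42.0, other scalings, filters, the replicate block and left-out libraries. A length correction was added after seeing the data. Members, role groups and gene lists were chosen with earlier results of these data known. Named genes were the catalytic subunits, PA28 genes, the extremes of each role by level, the smallest p values, and 2 genes per pathway list, of which some results are not reported here. Others, such as Psma5, Psmc1, Psmc6, Psmd13, Psmd14 and the genes that share reads, were named after their values were seen. Shared 50-base words and exon overlaps came from GENCODE M21. The fit was tested on simulated data, where it recovered 56% of 50 changes of 1.25-fold and 84% of 50 of 1.5-fold, with 8 false calls. Smaller changes were not simulated, and the largest fitted change of a proteasome gene was 1.20-fold (Psmb10). Libraries of a group differed by more than counting noise (mean chi-square per gene 4.11 to 9.14). A floor of 3 counts is 0.0648 to 0.140 CPM and covers counting error only.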

Additional observations from a re-analysis of the deposited data

How the results depend on the processing

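Across 17 alternatives, 680 of 697 estimates of single proteasome genes kept their direction and their side of the threshold, 7 passed in an alternative only, and 10, in 5 genes, changed sign. Proteasome genes past the threshold numbered 0 in edgeR's main test, 2 with no filter on low values (Psmb4 and Psmb6), 4 with DESeq2, and 0 to 1 with 1 library left out. Over all genes the count was 56, against 835 with no filter, 608 with DESeq2, 0 with limma on log2(TPM + 0.5) or log2(TPM + 0.1), 133 with robust settings, 203 with the replicate number as a block, 13 without siNC-3 and siCLAP-2, and 0 to 340 with 1 library left out. The replicate block called 0 proteasome genes. The replicate numbers are not stated to mark a shared litter, batch or day. Deviations of same-numbered libraries correlated at 0.145, 0.0971 and −0.0704. Those of differently numbered libraries ran from −0.310 (siNC-1 with siCLAP-2) to 0.194 (siNC-3 with siCLAP-2). With 3 libraries per group these values cannot show whether same-numbered libraries shared more than a number. With 1 library left out, the median of the 19S base and lid genes ran from 0.0705 to 0.13 and that of the immunoproteasome catalytic genes from −0.11 to 0.37, the lowest being without siCLAP-2. Single estimates ran from −0.11 to 0.41 (Psmb8), −0.12 to 0.33 (Psmb9), −0.0118 to 0.11 (Psme2), −0.0403 to 0.0435 (Psmd3) and −0.0970 to 0.0466 (Psmd11). Without siNC-3 and siCLAP-2, Psmd3 and Psmd11 stood at 0.0394 and 0.0262. With the median of genes of like length subtracted, the 19S median was 0.0490. Causes of these changes were not tested. Between 3 and 3 libraries an exact permutation test of 1 gene cannot go below p = 0.1.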
